A study of Mus musculus with 3 samples.

Results

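The genes described here encode enzymes and readers that write, remove or recognise marks on histones and DNA. They are 54 genes listed by name: 6 H3K4 methyltransferases, 2 methyltransferases of H3K36 and H3K9, 4 subunits of Polycomb repressive complex 2 (PRC2), 11 histone demethylases, 9 histone deacetylases (HDACs), 3 sirtuins, 8 acetyltransferases, 5 corepressor and remodelling genes, 4 genes of DNA methylation and 2 bromodomain readers of the BET family. All 54 were found by symbol among 55536 genes of GENCODE M21, of which 22028 are protein-coding. The list is one of names and its rule holds no measured value, but it was drawn up with earlier results of these data known. RNA came from the chromatin fraction of bone-marrow-derived macrophages (BMDM) of C57BL/6J mice, with ribosomal RNA depleted. The 3 libraries are replicates 1, 2 and 3 of a single condition: Lipid A, the membrane anchor of lipopolysaccharide, at 100 ng/ml for 12 h, a washout of 12 h, then Lipid A at 100 ng/ml again for 25 min. They started from 1 µg, 250 ng and 500 ng of RNA. With a single condition there is no contrast, and the values below are levels and their spread between libraries. The labels give each library the same donor identifier and do not say whether the cultures came from separate animals, so this spread may be partly technical.

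Histone methylation, histone acetylation and DNA methylation set how accessible a gene is to the transcription machinery. Methyltransferases of the COMPASS family mark active promoters and enhancers through H3K4, PRC2 places the repressive mark H3K27me3, and acetyltransferases and HDACs add and remove acetyl groups. In macrophages, the response to a repeated endotoxin dose is a textbook example of transcription shaped by earlier chromatin changes. Chromatin-bound RNA is rich in transcripts still being made or spliced, so its levels stand closer to synthesis than those of whole-cell RNA.

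Expected counts over annotated genes numbered 13502401, 17848798 and 17824176 in replicates 1, 2 and 3, and 3 counts, the most that a count of 0 allows, equal 0.222, 0.168 and 0.168 CPM, that is counts scaled to the library total. Only counting error is covered by this limit, because without molecular identifiers a read need not be a separate molecule. All 10 macrophage markers were detected, with a summed TPM of 1007, 1035 and 1083. None of the neutrophil, dendritic cell, B cell, NK cell or fibroblast markers were detected. Of the T cell list 1 of 7 was detected, Cd4 at a mean of 7.9 TPM, with Cd3e at 0 in every library. Of the erythroid list 1 of 6 was detected, Alas2 at 9.25, with Hbb-bt at 0. Of the endothelial list 3 of 6 were detected, Vwf at 31.3, 21.5 and 31.1 TPM, Kdr at 9.44, 1.8 and 2.99 and Pecam1 at 1.94, 1.88 and 1, with Cldn5 at 0 and a summed TPM of 42.8, 25.4 and 35.0. The part of other cell types in the results was not tested. In bulk RNA, fewer cells of a type and less RNA per cell cannot be told apart.

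A gene's level is given as TPM, which scales reads by transcript length and sums to the same total in every library; a gene's TPM is the sum over its annotated transcripts. Each library was quantified in 2 ways, and levels are those of the first unless the second is named. A gene was called detected where no library had it below a TPM of 1. All 54 genes were detected, beside 44.0% of protein-coding genes. Their median log2(TPM + 1) was 4.99, 5.01 and 4.78 in replicates 1 to 3, or 4.93 ± 0.13 (SD, n = 3). The median over all protein-coding genes was 0.61 ± 0.03, and over the 9689 detected ones 3.56 ± 0.03. For 44 genes of RNA polymerase II and Mediator, the general machinery of transcription, it was 3.07 ± 0.04. Together the 54 genes held 1.01%, 0.925% and 0.938% of the expected counts. The smallest count of a gene was 151, 166 and 209 in the 3 libraries (Hdac2) and the largest 14160, 24080 and 21909 (Kmt2d).

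**Figure D1:**
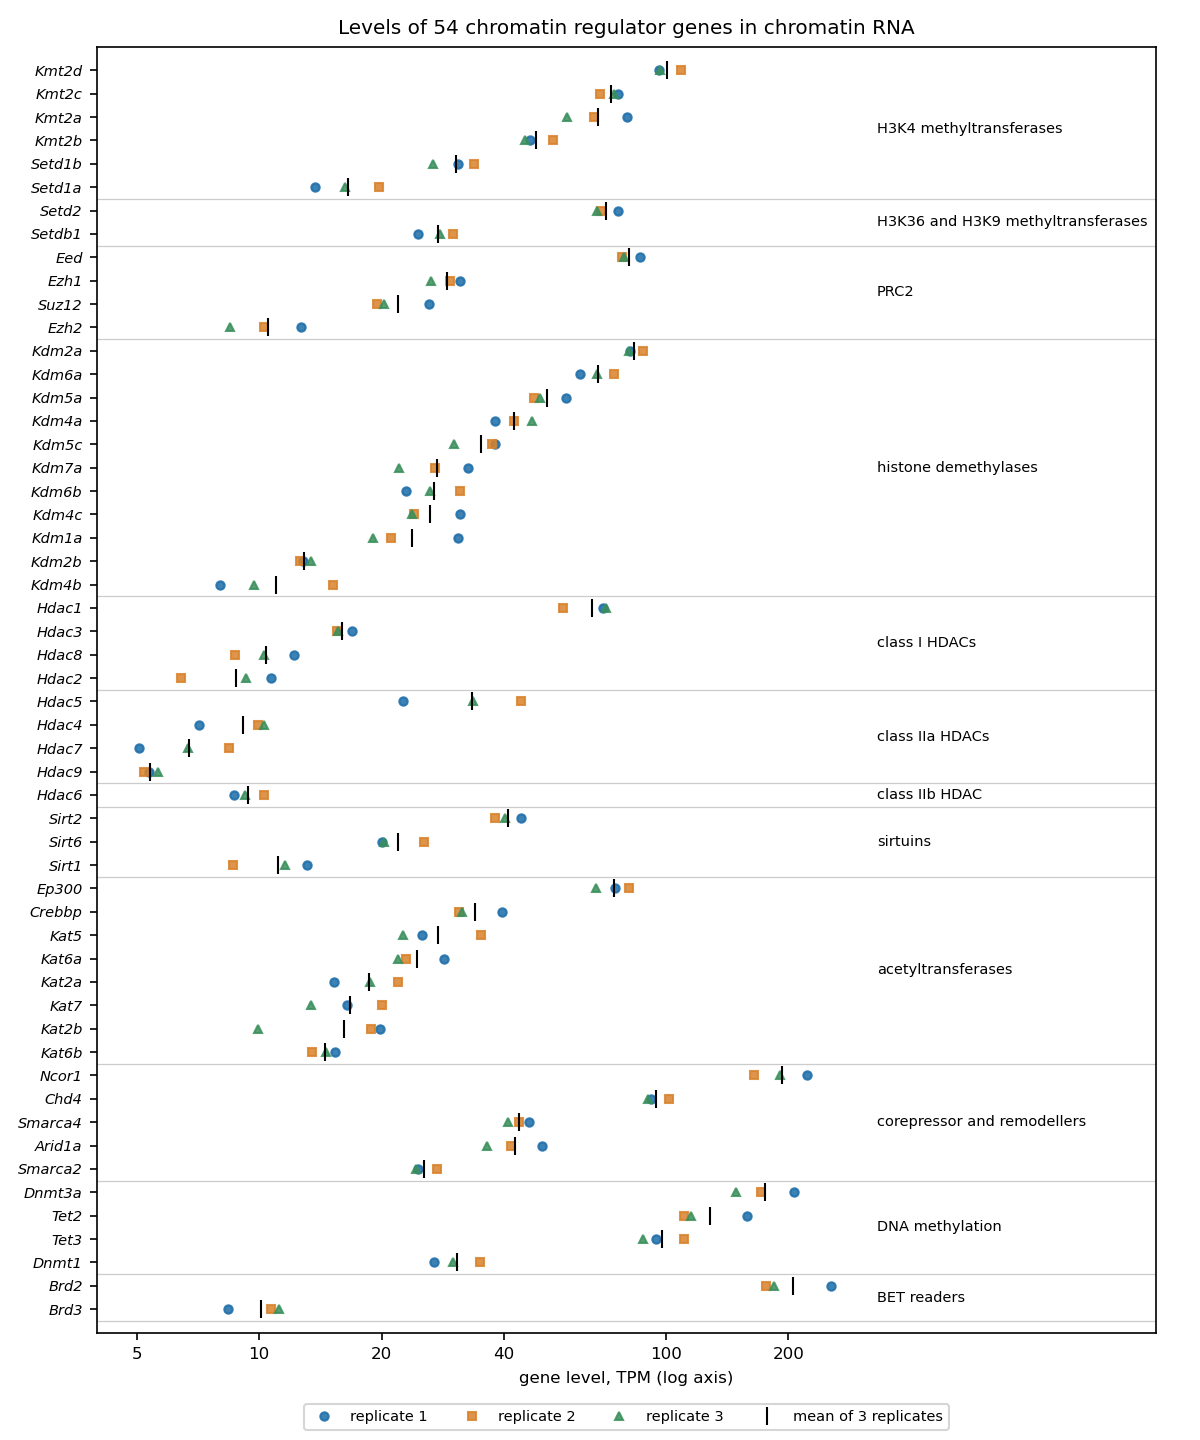
Gene level in TPM (log axis, first quantification) of each of the 54 genes, grouped by class; points are the 3 replicates and the bar their mean. Brd2, Ncor1 and Dnmt3a lie furthest right with means of 205, 193 and 175, and Hdac9 furthest left with a mean of 5.4.

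A large part of these levels came from annotated transcripts of the type retained_intron, which keep a piece of an intron and have no open reading frame assigned. The sequences below show what such models contain, because the level of several genes turns on them. Each is the most abundant retained_intron transcript of its gene; bases are from the GENCODE M21 transcripts (build GRCm38), read 5′ to 3′ on the gene's strand, with coding exon in lower case and intron in capitals. For Brd2 the kept intron is short enough to show whole, at chr17:34112709-34112855 on the minus strand. The others show 20 coding bases and the first 40 intronic bases, at chr4:129516860-129516919 (minus strand) for Hdac1, chr7:89972191-89972250 (minus) for Eed, chr12:3866233-3866292 (plus) for Dnmt3a and chr6:83441177-83441236 (minus) for Tet3.
Brd2-204: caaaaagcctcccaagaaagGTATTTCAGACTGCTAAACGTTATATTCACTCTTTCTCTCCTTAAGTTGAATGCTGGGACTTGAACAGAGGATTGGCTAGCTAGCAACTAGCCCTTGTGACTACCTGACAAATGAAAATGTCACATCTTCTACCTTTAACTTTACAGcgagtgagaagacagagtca
Hdac1-206: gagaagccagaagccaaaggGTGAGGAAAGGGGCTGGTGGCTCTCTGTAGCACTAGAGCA
Eed-203: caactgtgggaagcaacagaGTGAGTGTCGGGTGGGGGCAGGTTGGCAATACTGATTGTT
Dnmt3a-202: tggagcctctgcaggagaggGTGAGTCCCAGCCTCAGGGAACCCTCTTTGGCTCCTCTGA
Tet3-205: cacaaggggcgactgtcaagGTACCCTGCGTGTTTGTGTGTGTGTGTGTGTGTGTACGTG

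Each capital stretch begins with GT, the usual first bases of an intron, and the Brd2 intron ends with AG. In 35 genes the leading retained_intron transcript joined at least 20 coding bases to intron sequence. Hdac3, on chromosome 18, was left out of this count. In 26 of them it ran from coding exon into the intron, as in the examples, and 10 of these transcripts held a whole intron. In the other 9, among them Kdm2a and Ncor1, it held only the end of the intron and ran on into coding exon. All 35 introns showed GT or AG at the junction. The deposited tables do not tell RNA that was still to be spliced from RNA that stays unspliced. The models are short. Brd2-204 is 961 bases long and the full coding transcript Brd2-201 is 4657, so that a read counts for more TPM in the former.

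Among the H3K4 methyltransferases, Kmt2d, a large enzyme that marks enhancers, was highest at 96.3, 109 and 96.6 TPM in replicates 1, 2 and 3 (mean 100.5 ± 7.05). Setd1a, which trimethylates H3K4 at promoters, was lowest at 13.7, 19.7 and 16.3 TPM (16.5 ± 3.01). The ranges of Kmt2d and Setd1a did not overlap. Between them lay Kmt2c (73.2 ± 3.95), Kmt2a (68.0 ± 11.6), Kmt2b (48.0 ± 4.09) and Setd1b (30.4 ± 3.59). Kmt2a and Kmt2c did not differ beyond their spread. In the second quantification Setd1a at 26.4 ± 2.04 TPM and Setd1b at 26.9 ± 2.91 overlapped. Setd2, which trimethylates H3K36, gave 76.4, 69.3 and 67.7 TPM, and Setdb1, which methylates H3K9, gave 24.6, 30.0 and 27.9 TPM. Kmt2d-201, a transcript of 19823 bases, carried 61.2 ± 9.96 TPM by itself, so a large part of the Kmt2d level rested on its full coding transcript. In the second quantification Kmt2d-201 and Kmt2d-202 together had 48.6, 54.5 and 51.7 TPM, of 118, 96.5 and 115 for the gene.

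The PRC2 subunits stood far apart. Eed, which binds H3K27me3, was at 86.3, 78.2 and 78.8 TPM. Ezh2, the main catalytic subunit in dividing cells, was at 12.7, 10.3 and 8.5 TPM, below every library's value for Eed. Its relative Ezh1, which predominates in cells that no longer divide, was at 31.2, 29.5 and 26.4 TPM, above Ezh2 in every library. Suz12, a scaffold subunit, was between them at 22.0 ± 3.63 TPM. The Eed level was made mostly of short models: Eed-201, the full coding transcript, held 9.55 ± 1.23 TPM of the 81.1 ± 4.54. The order of the subunits depended on these models. With coding transcripts of the GENCODE basic set only, which are mostly full-length, Eed had 8.71, 8.98 and 11.0 TPM. That was below Ezh1 at 13.8, 15.0 and 15.1 in every library, and it overlapped Suz12 at 9.81, 7.01 and 8.44. Ezh2 stayed lowest at 2.16 ± 0.617.

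Kdm2a, an H3K36 demethylase, led the demethylases at 81.7, 87.6 and 81.3 TPM, and Kdm4b, which acts on H3K9, had the lowest mean at 7.99, 15.2 and 9.69 TPM. Kdm2b, the relative of Kdm2a that recruits a Polycomb complex to CpG islands, was at 12.8, 12.6 and 13.4 TPM, below Kdm2a in every library. The ranges of Kdm2b and Kdm4b overlapped, and in the second quantification Kdm2b had the lowest mean at 27.5 ± 2.29 TPM, beside 33.6 ± 8.11 for Kdm4b. Of the demethylases of H3K27me3, Kdm6a was at 61.5, 74.7 and 67.6 TPM and Kdm6b, known as inducible by lipopolysaccharide in macrophages, at 23.0, 31.2 and 26.3 TPM. The ranges of Kdm6a and Kdm6b did not overlap. The H3K4 demethylase Kdm5a was at 56.8, 47.3 and 49.0 TPM and Kdm1a, which removes methyl groups from H3K4 within the CoREST complex, at 30.8, 21.1 and 19.1 TPM. The others were Kdm4a (42.4 ± 4.48), Kdm5c (35.2 ± 4.3), Kdm7a (27.3 ± 5.3) and Kdm4c (26.3 ± 4.25), of which Kdm7a and Kdm4c did not differ beyond their spread. The lead of Kdm2a was lost with basic-set coding transcripts only, where it had 18.1, 20.6 and 19.0 TPM. Kdm4a at 23.4, 26.6 and 27.1 and Kdm5c at 22.2, 25.5 and 23.7 were then above it in every library.

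The 5 lowest mean levels of the 54 genes were those of HDACs (Hdac9, Hdac7, Hdac2, Hdac4 and Hdac6). In the second quantification Hdac8 at 10.5 TPM took the place of Hdac4, which had 22.4. With basic-set coding transcripts only, the lowest were not all HDACs. Ezh2 (2.16), Sirt1 (3.59) and Kat5 (4.06) then had lower means than Hdac2 (4.12), Hdac4 (4.14) and Hdac9 (4.36). Hdac1, a catalytic subunit of the Sin3, NuRD and CoREST complexes, had the highest mean of the HDACs at 70.1, 55.7 and 71.3 TPM. Its near relative Hdac2 was at 10.7, 6.43 and 9.28 TPM, far below it in each library. Hdac3, the enzyme of the NCoR and SMRT corepressors, was at 16.0 ± 0.776 TPM and Hdac8 at 10.4 ± 1.75. In class IIa, whose members shuttle between nucleus and cytoplasm, Hdac5 was at 22.6, 44.1 and 33.5 TPM, Hdac4 at 7.13, 9.93 and 10.3, Hdac7 at 5.08, 8.42 and 6.69, and Hdac9 at 5.36, 5.2 and 5.64. Hdac5 was above the other 3 in every library, while the ranges of Hdac7 and Hdac9 overlapped. Hdac6, a mainly cytoplasmic tubulin deacetylase, was at 8.66, 10.3 and 9.23 TPM. Of the NAD-dependent sirtuins, Sirt2 was highest at 44.1, 38.0 and 40.3 TPM, Sirt6 lay at 21.9 ± 3.01, and Sirt1 was lowest at 13.1, 8.61 and 11.6. In the second quantification the order of the latter turned, with Sirt1 at 27.3 ± 7.77 and Sirt6 at 23.5 ± 1.94 TPM, whose ranges overlapped.

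Ep300, a coactivator found at active enhancers, led the acetyltransferases at 75.0, 81.2 and 67.2 TPM. Crebbp, its close relative, was at 39.5, 31.0 and 31.6 TPM, below Ep300 in every library. Kat6b, of the MYST family, had the lowest mean at 15.4, 13.5 and 14.6 TPM. The other 5 were Kat5 (27.6 ± 6.64), the enzyme of the Tip60 complex, Kat6a (24.4 ± 3.48), Kat2a (18.6 ± 3.31), Kat7 (16.7 ± 3.33) and Kat2b (16.2 ± 5.41). Kat5 and Kat6a overlapped, as did Kat6b, Kat2a, Kat7 and Kat2b, while every value of Kat6a lay above every value of Kat2a. In the second quantification Kat2a was lowest at 13.6, 15.4 and 14.6 TPM, below Kat6b at 22.1 ± 3.53 in every library.

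Among corepressor and remodelling genes, Ncor1, the scaffold that carries Hdac3 to unliganded nuclear receptors, was at 222, 165 and 191 TPM. Smarca2, an ATPase of the SWI/SNF remodeller, was at 24.6, 27.3 and 24.3 TPM. Chd4, the ATPase of NuRD, had 94.6 ± 6.41 TPM, and the SWI/SNF genes Smarca4 and Arid1a had 43.5 ± 2.61 and 42.5 ± 6.66, which did not differ beyond their spread. The BET reader Brd2, which binds acetylated histone tails, was the highest of the 54 genes by its mean, at 255, 176 and 184 TPM (205 ± 43.4). Its relative Brd3 was at 8.37, 10.7 and 11.2 TPM. The ranges of Brd2, Ncor1 and Dnmt3a overlapped, so their order was not resolved. In the second quantification Dnmt3a had the highest mean at 389, 255 and 267 TPM, and its range overlapped that of Brd2 (324, 163 and 218). Compared within each library, Dnmt3a was above Brd2 in every library of the second quantification and below it in every library of the first.

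Dnmt3a, which places methyl groups on unmethylated DNA, was at 206, 171 and 149 TPM. Dnmt1, the maintenance enzyme that copies methylation after replication, was at 26.9, 35.0 and 29.9 TPM. Their ranges were far apart. The dioxygenases that oxidise methylcytosine, Tet2 and Tet3, had 128 ± 26.3 and 97.7 ± 12.1 TPM. Their relatives outside the 54 genes were low: Tet1 had a mean of 0.223 TPM and did not reach 1 in any library, and Dnmt3b had 1.42 ± 0.201 TPM.

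Dnmt3a is transcribed from several starts, and an internal one gives a shorter protein. RefSeq promoters (build GRCm38.p6) were matched for 45 of the 54 genes, with 66 start sites. The 100 bases before the first and the last Dnmt3a start are printed to show how the sequences differ; CG pairs can be read in them, and none is capitalised. They lie on the plus strand at chr12:3806880-3806979 and chr12:3891644-3891743.
Dnmt3a first start: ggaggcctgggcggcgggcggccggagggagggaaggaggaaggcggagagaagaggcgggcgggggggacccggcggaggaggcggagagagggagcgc
Dnmt3a last start: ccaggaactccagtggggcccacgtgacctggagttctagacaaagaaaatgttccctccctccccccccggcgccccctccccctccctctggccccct

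The window of the first start held 11 CG pairs and that of the last start, which gives the short form, 3. Over the 66 windows of these genes the median was 8.5, and over all 32851 RefSeq windows of the same length it was 3. Transcripts starting within 500 bases of the first start carried 63.0, 77.9 and 69.4 TPM, and those at the next start, which lies close by, carried 26.1, 19.5 and 15.3. Much of the gene's 206, 171 and 149 TPM lay in transcripts that begin at none of the 3 RefSeq starts. The sum at the first start includes the retained_intron transcript Dnmt3a-202 at 27.8 ± 3.34 TPM; the full coding transcript Dnmt3a-201 had 36.1, 37.2 and 44.3. Transcripts of the short form had 0.24, 7.24 and 3.39 TPM, below Dnmt3a-201 in every library. In the second quantification the short form had 31.0, 28.4 and 22.7 TPM, above Dnmt3a-201 at 15.3, 16.6 and 15.8. The order of Dnmt3a-201 and the short form thus turned between the quantifications. This leaves out Dnmt3a-218, the transcript at the next start. In the second quantification it had 36.7, 22.9 and 28.3 TPM, a range that overlapped that of the short form.

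The retained-intron share is the percentage of a gene's transcript TPM in retained_intron transcripts. It could be taken for 40 of the 54 genes; the other 14 have no such transcript in the annotation. It was at least 25% in every library for 32 of the 40, near the background, where 74.9% of 4730 genes met the same rule. The median share was 44.3%, 40.9% and 39.6% in replicates 1 to 3, and 46.9%, 47.7% and 43.2% over all such genes.

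The largest mean share was that of Eed, at 88.1%, 86.0% and 84.0% in the 3 libraries. Hdac1 followed with 75.8%, 75.2% and 77.8%. Kdm1a had 78.0%, 66.1% and 67.2%, Brd2 71.2%, 70.9% and 68.7%, and Kat6b 72.4%, 70.8% and 64.9%. Eed was above the other 4 in every library, and the range of Kdm1a overlapped those of the 3 others below it. At the other end Hdac8 had 6.77% ± 2.87 and Kat2b 9.66% ± 12.8, the latter from 24.2% in replicate 1 to 0% in replicate 3. In the second quantification Kat2b had 43.7%, 35.8% and 42.3%, so its low share held in the first only, while Hdac8 had 6.44%. Measured by expected counts in place of TPM, which removes the weight that TPM gives to short models, the mean share was smaller in 37 of the 40 genes and larger in Ezh2, Hdac6 and Hdac9. The largest were then those of Hdac7 (67.1% ± 1.36) and Setdb1 (61.5% ± 6.06). Eed had 58.6% ± 4.69, Hdac1 50.7% ± 2.61 and Brd2 29.7% ± 4.74. By counts, 17 of the 40 genes were at or above 25% in every library, beside 50.1% of the 4730 genes.

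Along the gene, the TPM-weighted midpoint of retained_intron transcripts had a median of 57.5%, 53.5% and 55.3% of the way from start to end, and 50.0%, 49.8% and 49.9% over all 4730 genes. No test was made of this difference. Hdac1-206 lies at the end of its gene (midpoint at 97.0%), Brd2-204 near the end (88.8%) and Eed-203 near the start (17.6%).

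**Figure D2:**
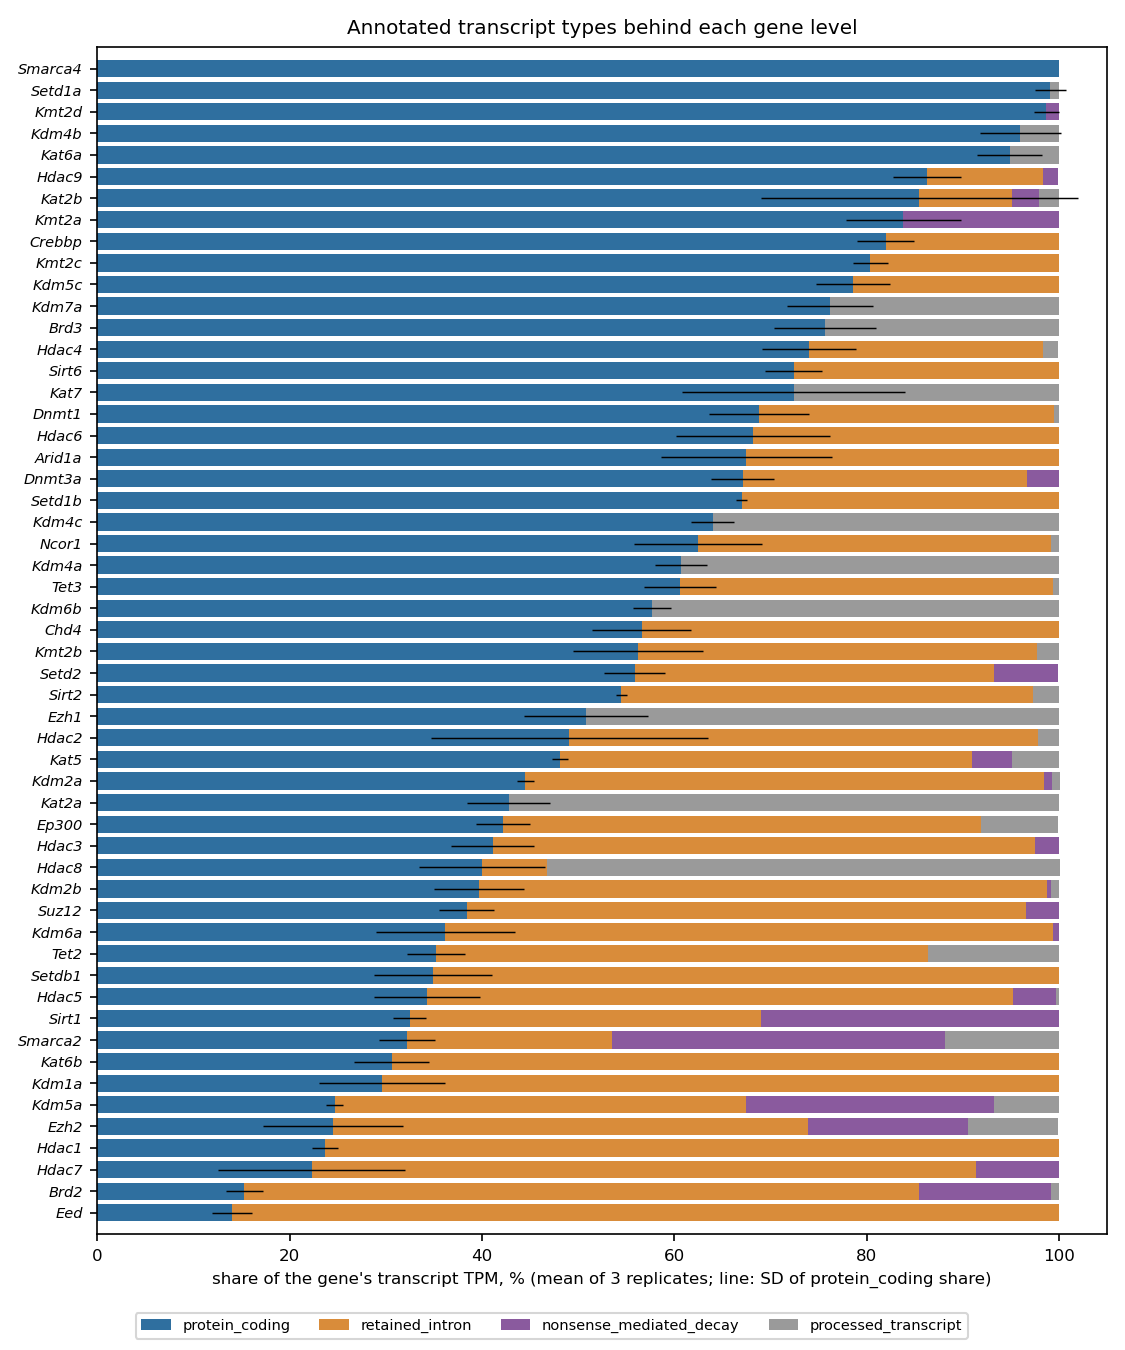
Share of each gene's transcript TPM by annotated transcript type (first quantification, mean of 3 replicates; the line is the SD of the protein_coding share). Smarca4 is at the top with 100.0% protein_coding, and Eed at the bottom with 14.0%.

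When levels were limited to coding transcripts of the GENCODE basic set, which are mostly full-length, the order of the genes was different. Kmt2d was highest with 64.0 ± 11.2 TPM, next to Dnmt3a with 63.2 ± 0.734 and Tet3 with 59.0 ± 5.58, and these 3 overlapped. Kmt2a (49.9 ± 4.4), Chd4 (42.4 ± 2.9), Tet2 (41.9 ± 5.41) and Ncor1 (38.1 ± 5.74) came after them. Brd2 had 39.4, 14.9 and 16.7 TPM by this measure (23.6 ± 13.7), with replicate 1 far above the others. Hdac7 was lowest at 1.22 ± 0.468 TPM and Ezh2 next at 2.16 ± 0.617.

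Related enzymes were compared within each library as the log2 ratio of TPM + 1, so that scaling between libraries cancels. Of 18 pairs, 15 had the same sign in all 3 libraries; Hdac7 over Hdac9, Kat2b over Kat2a and Tet2 over Tet3 did not. The exact sign-flip test, two-sided and with 3 libraries, cannot give a p below 0.25, which the 15 pairs reached (0.3 after Benjamini-Hochberg adjustment over the 18), so no pair could pass a threshold of 0.05.

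Brd2 over Brd3 had the largest ratio, at 4.77, 3.92 and 3.92 (mean 4.20 ± 0.49, an 18.4-fold difference). Hdac1 over Hdac2 was 2.61, 2.93 and 2.81 (6.89-fold) and Kdm2a over Kdm2b 2.58, 2.70 and 2.51 (6.06-fold). Dnmt3a over Dnmt1 was 2.89, 2.26 and 2.28 (5.57-fold). These 4 ratios were several times their spread. Hdac5 over Hdac4 was 1.54, 2.04 and 1.61, Ezh1 over Ezh2 1.23, 1.43 and 1.53, and Ep300 over Crebbp 0.91, 1.36 and 1.07. Kdm6b over Kdm6a was -1.38, -1.23 and -1.33, the largest ratio in favour of the gene named second. Paralogs have distinct sequences over most of their length, but the tables divide any shared reads between them.

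Limited to basic coding transcripts, several ratios shrank and 5 changed sign. Brd2 over Brd3 was 1.53 ± 0.74, Hdac1 over Hdac2 1.69 ± 0.23 and Ep300 over Crebbp 0.15 ± 0.10. Kdm6b over Kdm6a turned to 0.79 ± 0.49, Kdm5a over Kdm5c from 0.53 ± 0.17 to -1.26 ± 0.15, and Hdac7 over Hdac9 from 0.25 ± 0.34 to -1.29 ± 0.24. Tet2 over Tet3 became -0.49 ± 0.29 and Kat2b over Kat2a 0.51 ± 0.26. Other ratios grew: Smarca4 over Smarca2 from 0.75 ± 0.11 to 2.24 ± 0.11 (but -0.37 with all transcripts of the second quantification), Kat6a over Kat6b from 0.71 ± 0.14 to 2.15 ± 0.31 and Ezh1 over Ezh2 from 1.40 ± 0.15 to 2.32 ± 0.34. Dnmt3a over Dnmt1 kept its direction at 1.55 ± 0.07.

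**Figure D3:**
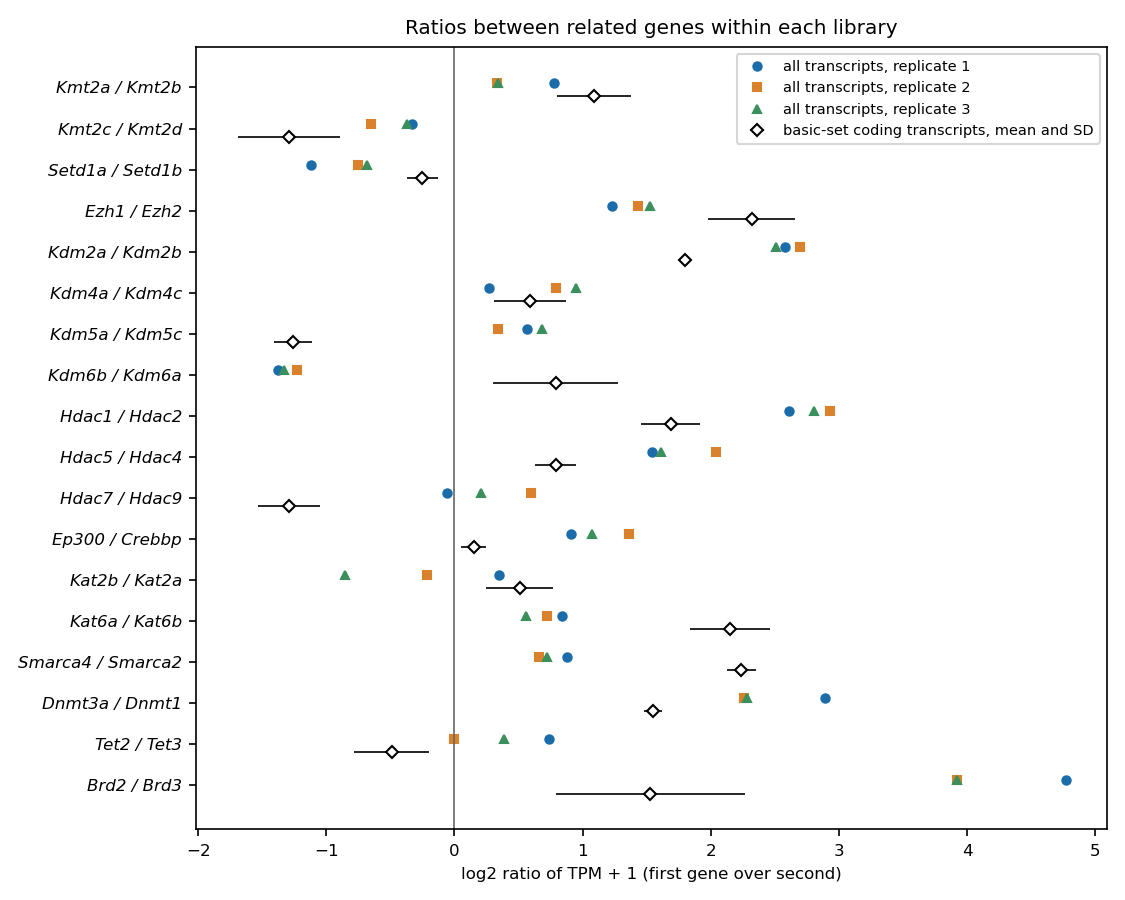
Log2 ratio of TPM + 1 between related genes; filled points are the 3 replicates with all transcripts, and open diamonds the mean and SD with basic-set coding transcripts. Brd2 over Brd3 moves from a mean of 4.20 to 1.53, and Kdm5a over Kdm5c crosses 0.

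The second quantification, summed over transcripts, gave these genes a median log2(TPM + 1) of 5.27 ± 0.20. It was 1.54 ± 0.09 over all protein-coding genes and 4.08 ± 0.14 over the 9689 detected in the first, so these medians were higher too. The gene that differed most was Kdm4b, at 37.1, 39.3 and 24.3 TPM, 3.06-fold the mean of the first. Of this, 19.7 ± 8.81 TPM lay in Kdm4b-206, a transcript of 130 bases that the first quantification lists at 0 in every library. Sirt1 was 2.46-fold higher at 35.7, 20.4 and 25.7 TPM, with 13.1 ± 1.41 in Sirt1-206, and Hdac4 2.45-fold higher at 22.6, 20.5 and 24.0, with 7.41 ± 1.78 in Hdac4-207. In each of these genes the leading transcript of the second quantification was a short non-coding model. The transcript with the highest TPM was the same in all libraries and both quantifications for 19 of 54 genes, beside 30.3% of 6523 genes tested. It was protein_coding in 12 of the 19, retained_intron in 6 and of another type in 1. The coding leaders included Kmt2a-201, Kmt2d-201, Setd2-201, Kdm6b-201 and Smarca4-204, and the retained_intron leaders Hdac1-206, Ncor1-207 and Suz12-203.

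**Figure D4:**
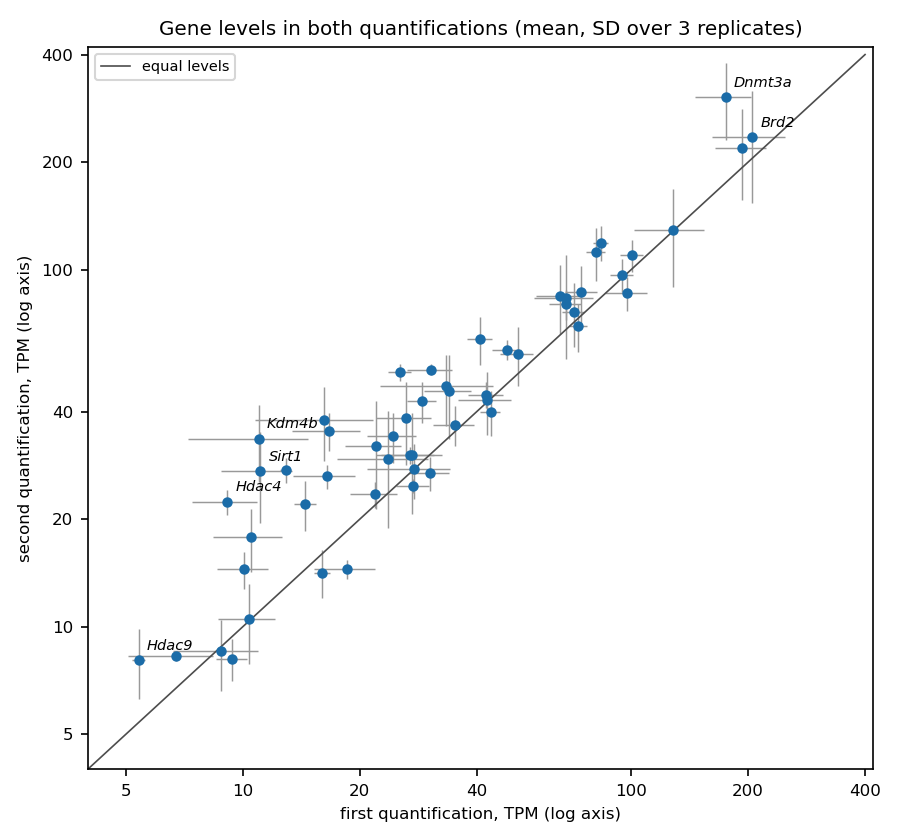
Mean TPM of the 54 genes in the first (x) and second (y) quantification, both on log axes, with SD over 3 replicates. Kdm4b, Sirt1 and Hdac4 lie furthest above the line of equal levels, at 3.06-, 2.46- and 2.45-fold.

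The spread between libraries was measured as edgeR's biological coefficient of variation (BCV), the square root of the dispersion, which edgeR draws towards the trend over all genes. The median BCV was 0.176, with a range from 0.164 to 0.238. Over all 14193 genes that passed the count filter it was 0.203, and over the 7182 genes within the same range of abundance 0.183. Without replicate 3 the median was 0.231, beside 0.24 over all genes. With all 3 libraries, 51 of the 54 genes were below the all-gene median. The 3 least variable were Kdm6a, Kdm5a and Crebbp, each at 0.164; Crebbp had log2 CPM of 7.65, 7.64 and 7.66.

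The 5 most variable genes were Hdac7 (0.238), Hdac5 (0.226), Kdm4b (0.215), Sirt1 (0.201) and Kmt2d (0.2). Hdac7 had log2 CPM of 3.62, 4.60 and 4.05, Hdac5 5.34, 6.25 and 6.02, and Kdm4b 4.36, 5.11 and 4.74. All 3 were lowest in replicate 1 and highest in replicate 2. Sirt1 went the other way at 4.88, 4.30 and 4.74, and Kmt2d had 9.92, 10.50 and 10.29. A library was counted as apart for a gene where its log2 CPM was at least 0.5 from the mean of the other 2. Replicate 1 was below by that much for 3 genes (Hdac5, Hdac7 and Kdm4b), beside 13.2% of all genes, and above for 0, beside 13.0%. Replicate 2 was above for the same 3 genes, beside 10.6%, and below for Sirt1, beside 9.03%. Replicate 3 was apart for 0 genes, beside 5.89% above and 8.05% below. Starting RNA also differed between the libraries, with most in replicate 1 and least in replicate 2; its part in these differences was not tested.

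**Figure D5:**
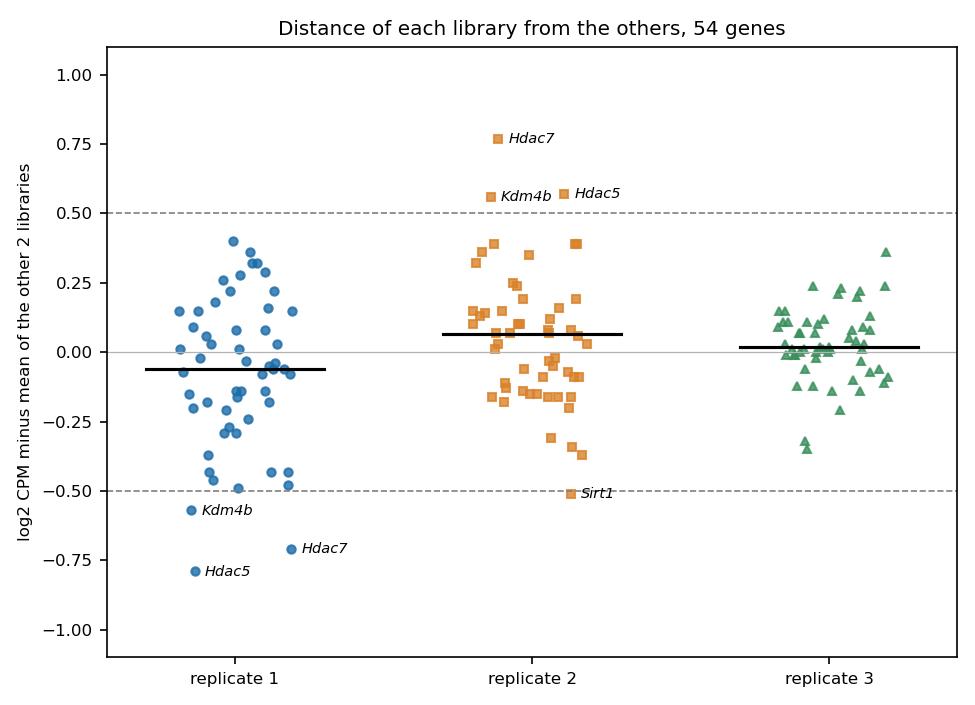
Difference in log2 CPM between each library and the mean of the other 2, for the 54 genes; the black line is the median and the dashed lines mark 0.5. Hdac5, Hdac7 and Kdm4b lie below the lower line in replicate 1 and above the upper line in replicate 2.

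Partner genes of the same complexes, a list of 76 genes, were detected in 70 cases, beside 44.0% of protein-coding genes. SWI/SNF subunits were all detected (12 of 12), from Smarcc2 at a mean of 55.9 TPM to Smarcd1 at 9.21. So were the HDAC corepressor genes (15 of 15), from the NuRD ATPase Chd3 at 66.4 to the Sin3 subunit Sap30 at 2.84, and the H3K9 and heterochromatin genes (8 of 8), from the methyltransferase Ehmt2 at 147 to Suv39h1 at 3.92. COMPASS partners had 7 of 8 detected, the highest being the coactivator Ncoa6 at 39.4. The lowest was the core subunit Dpy30, not detected at 0.48, 2.43 and 0.76 TPM (mean 1.22). Polycomb partners had 12 of 15, the highest being Mtf2, a PRC2 accessory factor, at 32.2. The lowest was the PRC1 reader Cbx2, not detected at 0.283. Acetyltransferase partners had 10 of 11, the highest being the scaffold Trrap at 89.7. Tada2b, with the lowest mean at 1.26, was not detected because replicate 1 had 0.98. Other DNA methylation genes had 6 of 7, the highest being the methyl-CpG reader Mbd1 at 39.1 and the lowest Tet1, not detected.

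Exons of 26 of the 54 genes share bases with another annotated gene, and for 16 the other gene lies on the opposite strand with a mean TPM of at least 1. The strand setting of the counting is not given in the sources used here, so reads in these bases could belong to either gene. The highest such neighbour was Cers2 at 75.2 TPM, opposite Setdb1, then H2-DMa at 14.0 opposite Brd2, Nfkbib at 13.2 opposite Sirt2 and Ccdc77 at 11.1 opposite Kdm5a. Slc48a1 at 10.9 lies opposite Hdac7, Ttc19 at 10.3 opposite Ncor1, Rnf34 at 7.93 opposite Kdm2b and Dnmt3aos at 7.57 opposite Dnmt3a. Gm26563 at 7.07 lies opposite Suz12, AC061963.1 at 6.82 opposite Kmt2a and Kdm6bos at 6.63 opposite Kdm6b. The levels of the 16 genes, including those not named here, are uncertain to that extent.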

How the data were processed

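Each library's gene table and first transcript table hold expected counts and TPM under RSEM's column names, per the file headers. Its second transcript table holds estimated counts and TPM under kallisto's names, per the file headers. The deposited notes give build mm10 and GENCODE M21; aligner, versions and strandedness are not given in the sources used. Effective lengths were deposited beside them. Rows outside the annotation (1.75%, 0.396% and 0.239% of expected counts) were left out. The 54 genes, partner lists, pairs and tests were chosen with earlier results of these data known. Every gene of the 54 is named; values in every library are given for the highest and lowest of each class, the 8 largest pair ratios, the 5 largest and 3 smallest BCV, the 5 largest retained-intron shares and the 3 largest differences between quantifications. Expected counts were rounded for edgeR 4.0.16 (R 4.3.3; filterByExpr, TMM, estimateDisp with an intercept; log2 CPM with a prior count of 1). Ratios used a pseudocount of 1. Alternatives were DESeq2 1.42.0 size factors, other thresholds, the second quantification, coding transcripts only and leaving out each replicate. Shares by expected counts and basic-set coding ratios were added after seeing the data. The estimate of spread was also run on simulated counts, in which spread differed far more between genes than among the 54. That run does not bear on BCV differences as small as those reported. Python 3.11.15, numpy 2.4.6, pandas 2.3.3 and matplotlib 3.10.9 were used.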

Additional observations from a re-analysis of the deposited data

How the results depend on the processing

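All 54 genes were detected under each alternative tried: TPM thresholds of 0.5 and 5, the second quantification, TPM rescaled to protein-coding genes, and each replicate left out. The median log2(TPM + 1) of 4.93 became 5.27 in the second quantification and 6.77 with TPM rescaled to protein-coding genes; leaving out a replicate gave 4.89 to 5.0. Of 126 pair settings 114 kept the direction of the ratio and 12 did not. With protein_coding transcripts only, Kdm5a over Kdm5c was -1.07, Hdac7 over Hdac9 -1.21, Kat2b over Kat2a 0.67 and Tet2 over Tet3 -0.40. With basic coding transcripts these 4 were -1.26, -1.29, 0.51 and -0.49, and Kdm6b over Kdm6a was 0.79. In the second quantification Kat2b over Kat2a was 1.30 and Smarca4 over Smarca2 -0.37, and leaving out a replicate gave -0.53 to 0.07 for Kat2b over Kat2a, the latter without replicate 3. The median BCV was 0.147 to 0.231 when a replicate was left out. Counts of genes apart in a library (replicate 1 below, replicate 2 above and below) were all 0 at a distance of 1, and that of replicate 2 below was 0 in the second quantification. Retained-intron shares of at least 25% were counted in 17 genes by expected counts, and in 31 by the second quantification. The cause of these changes was not tested, apart from those that follow from which transcripts are counted. No paired analysis was possible because the 3 libraries form a single group.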
